A study of Mus musculus with 6 samples.

Results

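The genes described here are the regulators of focal adhesion and of the actin cytoskeleton, which anchor a cell to its matrix, carry the signal of that contact inward, and build, branch, and contract the actin filaments behind it. Members were taken from the pathway annotation that stands beside the expression values in the deposited table. A gene was a member if this annotation placed it in the KEGG pathway of focal adhesion or in that of regulation of the actin cytoskeleton. Genes that were also placed in the pathways of ECM-receptor interaction, insulin signalling, cytokine-receptor interaction, or cell cycle, or in the GO term of extracellular matrix organization, were left out, as were *Cav1*, *Cav2*, *Vegfa*, *Pdgfrb*, *Itgb2*, *Nckap1l*, and *Pdpk1*. Of 119 genes in either pathway, 46 were left out through another pathway or the matrix term and 6 by name alone. This left 67 members of the 4864 genes analysed, with 12 in the focal adhesion pathway only, 36 in the actin pathway only, and 19 in both.

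Stem cells of fat (ADSCs), which are the precursors of adipocytes, were taken from the subcutaneous white fat of wild-type male C57BL/6J mice and differentiated into adipocytes, and mRNA was sequenced from 3 vehicle and 3 NJT-2 libraries. NJT-2 is saikosaponin A, a plant saponin that the study examined as a ligand of PPARγ, the nuclear receptor that drives adipocyte differentiation. Both groups had received the same inducers (dexamethasone, insulin, 3-isobutyl-1-methylxanthine, indomethacin, and triiodothyronine), so that NJT-2 was the labelled difference, and the age of the mice was not given in the sources used here. The study names a concentration of NJT-2 for this cell model but none of its own for the sequenced cultures. The labels number the libraries without saying whether they came from separate animals or cultures, so that every p-value below measures only the spread between these libraries, which may be technical.

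Fat precursors are spread, adherent cells with actin stress fibres and large focal adhesions. During adipogenesis they round up, the stress fibres give way to a cortical actin layer, and RhoA and its kinase ROCK are known to hold cells back from the adipocyte fate. A focal adhesion is a plaque in which integrins outside are coupled through talin, vinculin, and α-actinin to actin inside, while the small GTPases RhoA, Rac1, and Cdc42 set whether the filaments contract, branch, or bundle.

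The counts on the analysed genes ranged from 16093037 in vehicle replicate 1 to 28929673 in vehicle replicate 2, and the members held between 0.969% and 2.29% of them. The spread within groups was large over all genes (common biological coefficient of variation 0.504), and vehicle replicate 1 and NJT-2 replicate 2 stood apart from their groups, while NJT-2 replicates 1 and 3 were close to each other. The labelled cell type was checked against its markers. All 10 tested adipocyte markers of a list of 16 had a higher fitted level in NJT-2. Of these, 6 were called higher by edgeR, against 0.567% of all tested genes, and 10 by DESeq2, against 4.4%. The summed FPKM of these markers, with 1 untested marker included, was between 82.5 and 105.5 in the vehicle libraries and between 489.1 and 1720 in the NJT-2 libraries. *Adipoq*, which encodes the adipocyte hormone adiponectin, was at no more than 0.50 FPKM in any vehicle library against 22.04 to 64.6 FPKM in the NJT-2 libraries, and *Cidea* was at or near 0 in all 6. The vehicle libraries therefore carried little of this defining adipocyte transcript although both groups were labelled as differentiated. In bulk RNA, fewer cells of a type and less RNA per cell cannot be told apart, and this holds for each member below.

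FPKM is the read count of a gene divided by its length and by the library total, so FPKM values may be compared between genes. Per-library values are given below in the order of replicates 1, 2, and 3. A log2 fold change is the edgeR estimate of NJT-2 minus vehicle from the counts, with its standard error (SE). A gene was called when its p-value, adjusted by Benjamini-Hochberg over all 3705 tested genes, was under 0.05 and its absolute log2 fold change was over 1. A gene was tested if its mean FPKM was at least 0.5, which 50 of the 67 members passed.

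The study sequenced these libraries to characterise the metabolism of adipocytes given NJT-2 and read them again for the PPARγ pathway. No member was called higher, against 0.567% of all tested genes, and none was called lower, against 0.135% of all tested genes. Both directions together held 0.702% of all tested genes. Without NJT-2 replicate 2 there was again no call among the members, against 1.51% higher and 0.513% lower of all tested genes. At an unadjusted p under 0.05 there were 4 members of 50 (8%), against 17.8% of all tested genes. On the higher side, where all genes gave 8.04%, there were 3, *Met* and *Gna13* among them, and on the lower side, where all genes gave 9.72%, there was 1, *Enah*. DESeq2 with the same limits called 1 member higher, *Met*, against 4.4% of all tested genes, and 0 lower, against 3.4%. It gave no adjusted p-value for *Gna13*, *Fgf23*, *Pgf*, and *Bdkrb2*, which could therefore not be called. The count of 4 members at an unadjusted p under 0.05 in edgeR changed with the libraries and the scaling used. Over all 3705 tested genes the count was 658, and it changed as well. Leaving out NJT-2 replicate 2 gave 10 members and 701 of all genes. Leaving out vehicle replicate 3 gave 9 members and 1049 of all genes, and leaving out vehicle replicate 2 gave 1 member and 421 of all genes. With all 6 libraries there were 8 members and 678 of all genes with a trend on gene length taken out, and 2 members and 512 of all genes with the library totals implied by the FPKM values.

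The fitted changes of the 50 tested members ran from -1.46 for *Rac3* to 4.30 for *Fgf23*, with 29 (58%) above 0, against 50.8% of all tested genes, and 21 (42%) below 0, against 49.2%. Their median was 0.21, beside 0.02 over all tested genes, and it was -0.05 without NJT-2 replicate 2. An absolute fitted change over 1 was seen for 9 members (18%), against 25.9% of all tested genes. The SE measures the uncertainty of a fitted change, and its median over the members was 0.47. A 95% interval is wider than 1 SE on each side, so that a typical change of about that size was not told apart from 0. In FPKM, the 3 NJT-2 values were all above the 3 vehicle values for 7 members (14%), against 14.4% of all tested genes, and all below for 2 members (4%), against 11.5%. On CPM, the count scaled to the size of the library, 8 members were all higher (16%), against 15.1%, and 3 all lower (6%), against 14%, where *Pak2* and *Enah* were the additions.

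**Figure D1:**
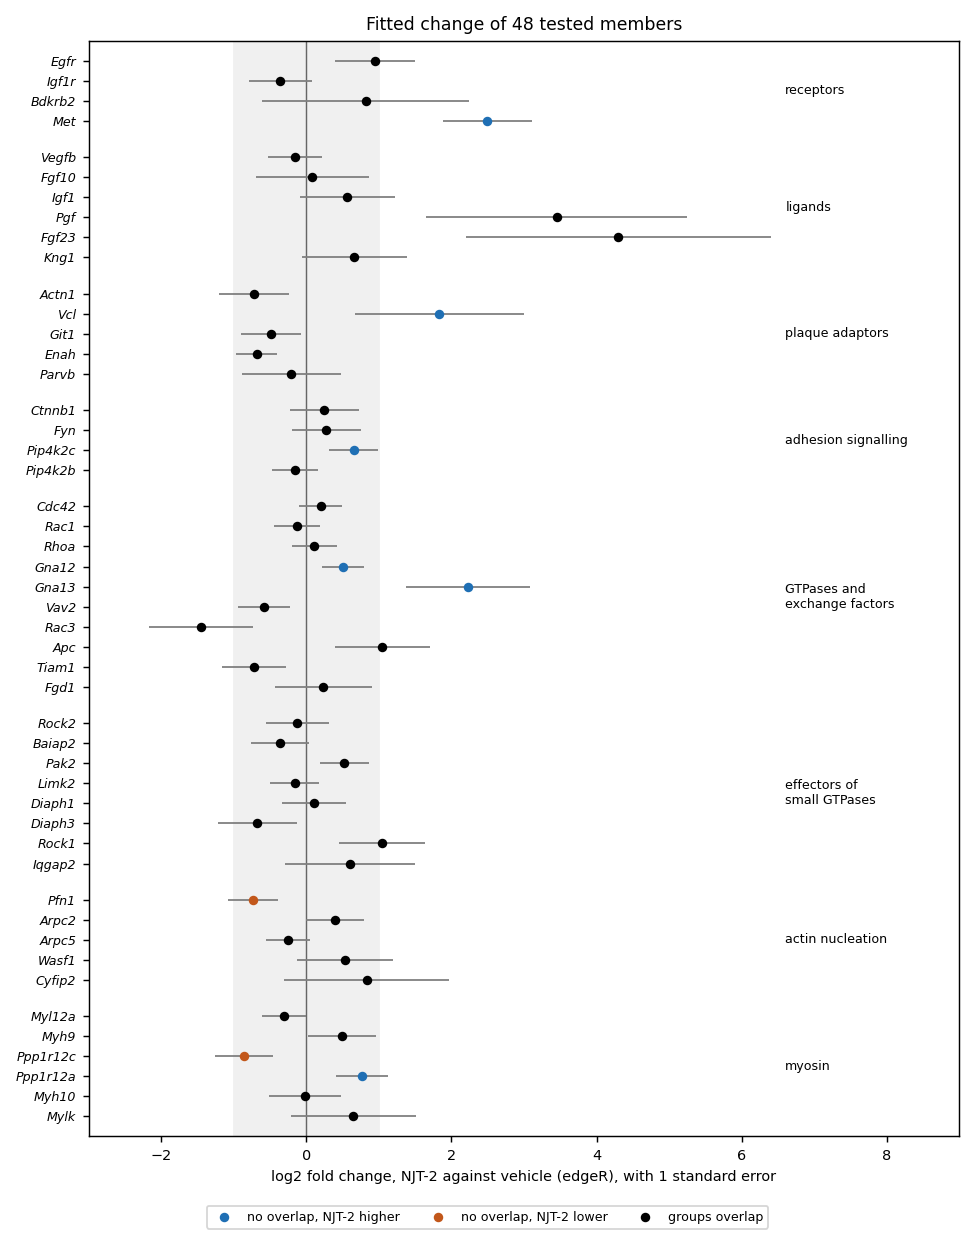
Fitted log2 fold change of NJT-2 against vehicle (x axis, points) with 1 standard error on each side (lines) for 48 of the 50 tested members, grouped by role, with the band from -1 to 1 in grey. Colours mark the 6 of them with all NJT-2 libraries higher and the 2 with all lower in FPKM, and the 2 largest estimates, *Fgf23* and *Pgf*, have the longest error lines.

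The plaque adaptors that join the adhesion to actin had 7 members, of which 6 were tested. Their median fitted change was -0.35, and 5 of the 6 were below 0, with *Vcl* as the exception. None of the 6 was called by edgeR with all 6 libraries. *Vcl* encodes vinculin, the adaptor that is recruited to an adhesion under tension. It was at 0.15, 5.20, and 21.9 FPKM in the vehicle libraries and at 32.4, 23.8, and 38.5 FPKM in the NJT-2 libraries. All 3 NJT-2 values were above all 3 vehicle values, but the vehicle values themselves spanned 146-fold between replicates 1 and 3, more than those of any other tested member with a read in both libraries. Its log2 fold change was 1.83 (SE 1.16, 95% interval -0.87 to 4.54, adjusted p = 0.389), and it was 1.21 without vehicle replicate 1 and 3.51 without vehicle replicate 3. The annotation places exons of the opposite-strand gene *Ap3m1* over 25.5% of the exonic bases of *Vcl*, and the use of strand in counting is not given in the sources used here.

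Because *Vcl* is a classical target of the actin-responsive factor SRF and had the widest range among the vehicle libraries, its promoter is shown. The sequence is the RefSeq window (GRCm38.p6, plus strand, chr14:20929148-20929447), printed 5′ to 3′ from 250 bases before to 50 bases after the gene's start. Capitals mark the match to the CArG box, the binding motif of SRF, which begins 227 bases before the start. 
*Vcl*: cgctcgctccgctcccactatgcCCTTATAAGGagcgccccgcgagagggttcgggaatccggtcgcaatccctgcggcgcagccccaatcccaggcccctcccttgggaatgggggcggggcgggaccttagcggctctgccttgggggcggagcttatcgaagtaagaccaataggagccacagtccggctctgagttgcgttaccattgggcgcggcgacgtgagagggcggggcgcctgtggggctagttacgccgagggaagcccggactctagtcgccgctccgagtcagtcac
Of the 53 members with a promoter in the RefSeq table, 3 held a CArG box in this window on either strand, while 1.81% of all 27025 genes in the table held one. The others were *Myl7*, with the match CCTTATTTGG, and *Tiam1*, with the match CCTATTTAGG. A match is a description of letters and not evidence of a bound site, and the values of these 3 members were not alike. *Myl7*, a cardiac myosin light chain, had 2 reads in all 6 libraries together, and *Tiam1*, a Rac exchange factor, was at 0.98, 1.66, and 3.82 FPKM in vehicle and 1.23, 1.20, and 1.71 FPKM in NJT-2.

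*Actn1* encodes α-actinin, which crosslinks actin filaments and ties them to the plaque. It was at 12.7, 33.1, and 54.8 FPKM in vehicle and at 14.1, 30.0, and 18.5 FPKM in NJT-2. The groups overlapped through vehicle replicate 1, and the log2 fold change of -0.72 (SE 0.48, adjusted p = 0.404) lay between -1.15 and -0.31 when each library was left out in turn. *Enah*, the Mena protein that promotes filament elongation at adhesions, was at 3.54, 5.89, and 6.93 FPKM in vehicle and at 3.40, 3.59, and 4.14 FPKM in NJT-2. Its vehicle replicate 1 lay inside the narrow NJT-2 range. Its log2 fold change was -0.69 (SE 0.28, unadjusted p = 0.0407, adjusted p = 0.269). *Git1*, a scaffold at the paxillin complex, was between 13.5 and 22.5 FPKM in all 6 libraries, and *Parvb*, a parvin that binds the integrin-linked kinase, was between 0.51 and 2.25 FPKM.

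**Figure D2:**
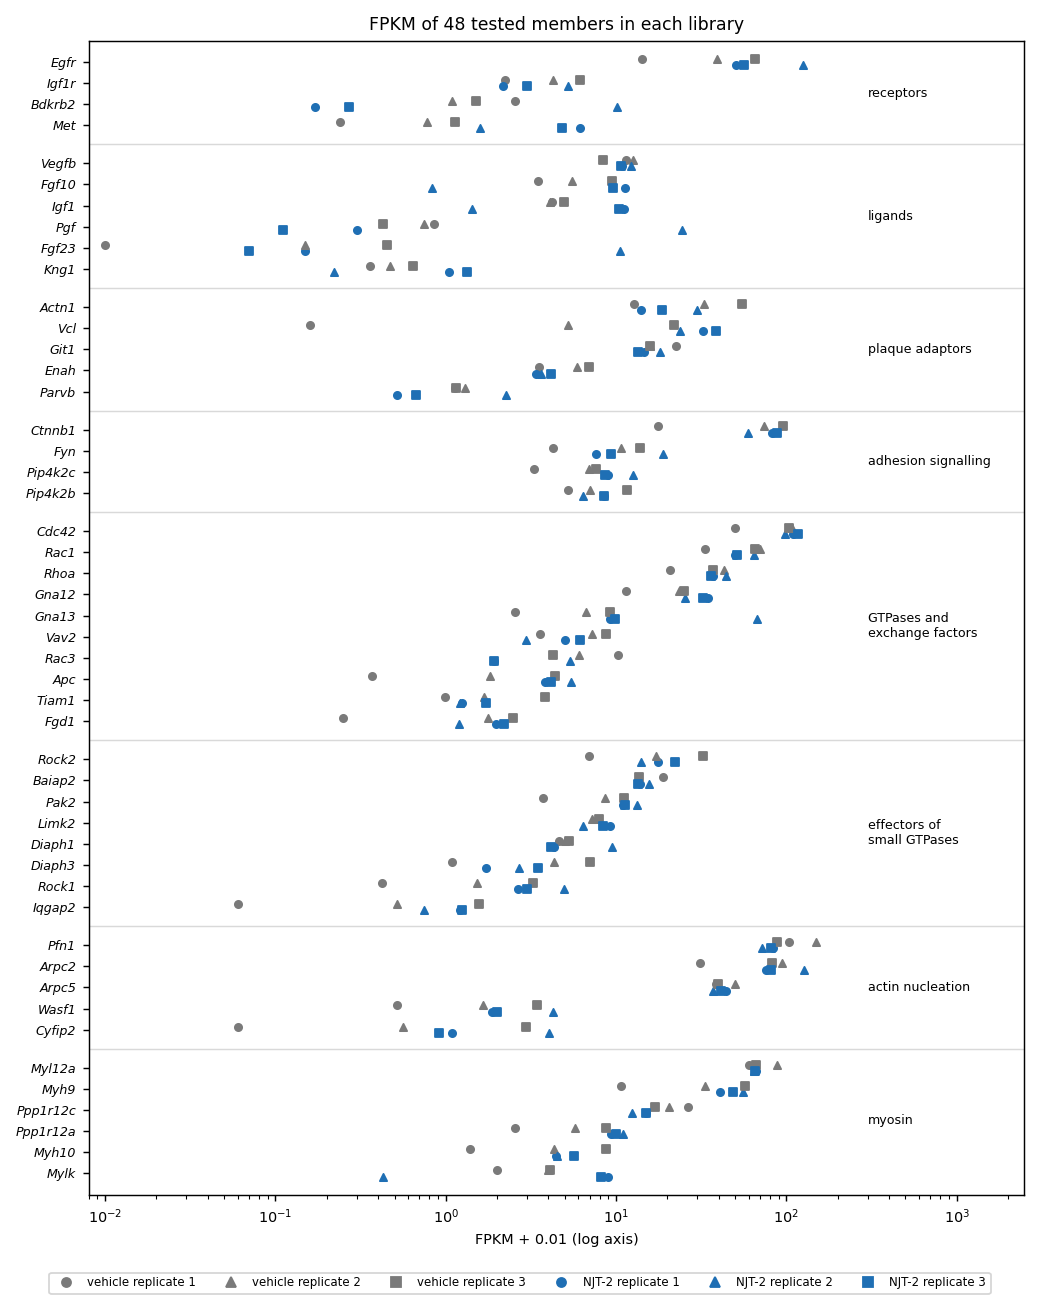
FPKM plus 0.01 on a log axis (x) for 48 of the 50 tested members (y, by role) in the 3 vehicle libraries (grey) and the 3 NJT-2 libraries (blue), with a marker for each replicate. Vehicle replicate 1 (grey circles) is the lowest of the 6 libraries for 29 of those shown, and NJT-2 replicate 2 (blue triangles) is the highest for 17.

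Receptors at the membrane had 8 members, of which 4 were tested, with 3 fitted above and 1 below 0. *Met* encodes the receptor of hepatocyte growth factor, which controls spreading and scattering of cells. It was at 0.23, 0.77, and 1.12 FPKM in vehicle and at 6.17, 1.57, and 4.79 FPKM in NJT-2. Every NJT-2 library was above every vehicle library, with NJT-2 replicate 2 nearest to the vehicle range. The mean was 4.18 ± 2.36 FPKM (SD, n = 3) in NJT-2 and 0.707 ± 0.448 FPKM (SD, n = 3) in vehicle. The log2 fold change was 2.49 (SE 0.61, 95% interval 1.07 to 3.92). Its unadjusted p of 0.00398 gave an adjusted p of 0.134 in edgeR, while DESeq2 gave an adjusted p of 0.00216, and the fitted change stayed between 2.11 and 2.87 when each library was left out in turn.

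*Egfr*, the epidermal growth factor receptor, was at 14.2, 39.0, and 65.4 FPKM in vehicle and at 50.4, 125.3, and 56.4 FPKM in NJT-2. It was the highest receptor in the set, and vehicle replicate 3 lay above NJT-2 replicates 1 and 3. The fitted change of 0.95 (SE 0.55, adjusted p = 0.363) was 0.34 without NJT-2 replicate 2, 0.62 without vehicle replicate 1, and 1.39 without vehicle replicate 3. *Bdkrb2*, the bradykinin B2 receptor, was at 2.53, 1.08, and 1.49 FPKM in vehicle and at 0.16, 10.1, and 0.26 FPKM in NJT-2. NJT-2 replicate 2 was above all vehicle libraries and the other two NJT-2 libraries were below all of them. Its fitted change was 0.82 (SE 1.43) with all libraries and -3.37 without NJT-2 replicate 2 (adjusted p = 0.101). *Igf1r*, the receptor of insulin-like growth factor 1, was between 2.17 and 6.16 FPKM in all 6 libraries, with a log2 fold change of -0.36 (SE 0.44).

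The growth factors and other ligands had 10 members, of which 6 were tested, with 5 fitted above and 1 below 0. None of them was called by edgeR with all 6 libraries. These ligands held the largest differences between replicates of NJT-2. *Igf1*, insulin-like growth factor 1, which adipocytes and their precursors release, was at 4.18, 4.06, and 4.95 FPKM in vehicle and at 11.2, 1.41, and 10.4 FPKM in NJT-2. The vehicle libraries lay close together, whereas NJT-2 replicates 1 and 3 were above them and replicate 2 was below. *Fgf10*, a fibroblast growth factor known to promote adipogenesis, was at 3.47, 5.53, and 9.47 FPKM in vehicle and at 11.2, 0.82, and 9.59 FPKM in NJT-2. It had the same arrangement within NJT-2, with the mean of replicates 1 and 3 at 12.7 times the value of replicate 2. The fitted changes were 0.56 (SE 0.66) for *Igf1* and 0.08 (SE 0.78) for *Fgf10*. That of *Igf1* was 0.18 without NJT-2 replicate 1 and 1.05 when NJT-2 replicate 2 was left out instead, and that of *Fgf10* changed sign under other settings. *Kng1*, the precursor of bradykinin, was at 0.35, 0.46, and 0.63 FPKM in vehicle and at 1.03, 0.21, and 1.32 FPKM in NJT-2, again with replicate 2 lowest.

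*Pgf*, placental growth factor, a ligand of the VEGF receptor family, ran the other way. It was at 0.84, 0.73, and 0.42 FPKM in vehicle and at 0.29, 24.5, and 0.10 FPKM in NJT-2. *Fgf23*, a hormone of phosphate balance made mainly in bone, was at 0.00, 0.14, and 0.44 FPKM in vehicle and at 0.14, 10.5, and 0.06 FPKM in NJT-2. In both genes NJT-2 replicate 2 alone was high, at 125-fold the mean of replicates 1 and 3 for *Pgf* and 105-fold for *Fgf23*. Their fitted changes of 3.45 (SE 1.80) and 4.30 (SE 2.10) were therefore carried by that library, and without it they were -2.05 and -0.90. *Vegfb*, a vascular endothelial growth factor abundant in fat, was between 8.40 and 12.6 FPKM in all 6 libraries, with a fitted change of -0.16 (SE 0.38).

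**Figure D3:**
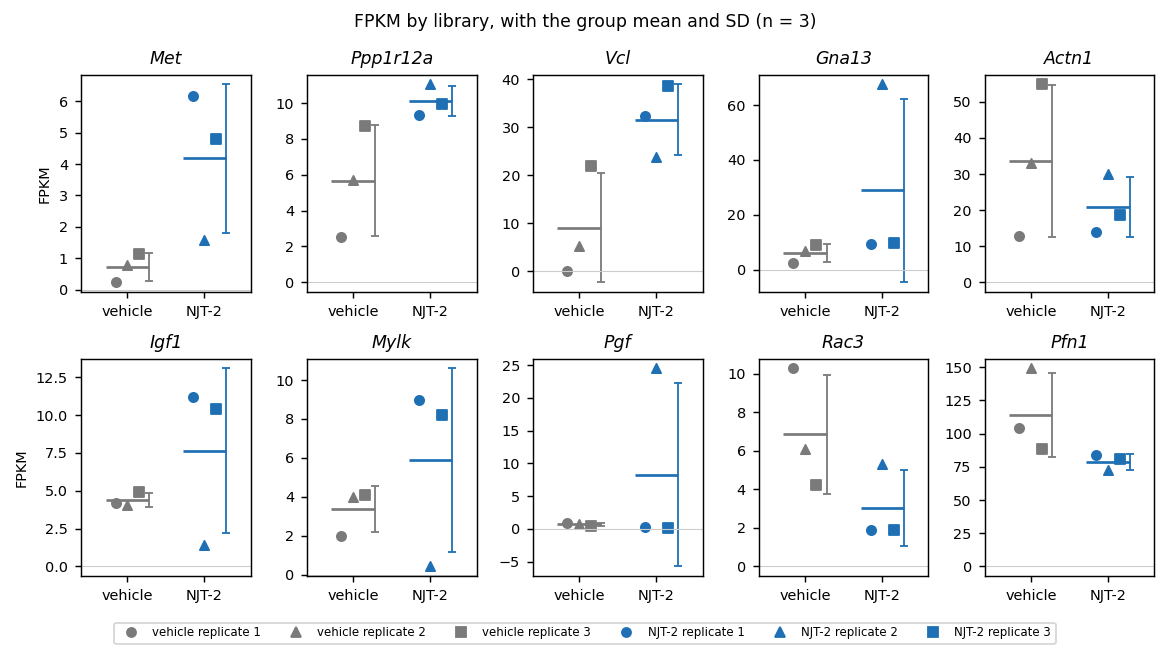
FPKM (y axis, linear) of 10 members by group, with a marker for each replicate, the group mean (horizontal line) and the SD (vertical line, n = 3). The groups do not overlap for *Met*, *Ppp1r12a*, *Vcl*, *Gna13*, and *Pfn1*. NJT-2 replicate 2 (triangle) lies far from replicates 1 and 3 for *Met*, *Gna13*, *Igf1*, *Mylk*, *Pgf*, and *Rac3*.

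The kinases, phosphatases, and lipid enzymes of adhesion signalling had 6 members, of which 5 were tested, with a median fitted change of 0.27. *Pip4k2c*, a kinase of phosphatidylinositol phosphates, was at 3.29, 6.89, and 7.66 FPKM in vehicle and at 8.90, 12.5, and 8.55 FPKM in NJT-2. All its NJT-2 libraries were above all vehicle libraries, with a log2 fold change of 0.65 (SE 0.34, adjusted p = 0.318). Its relative *Pip4k2b* was between 5.20 and 11.6 FPKM and did overlap.

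*Ctnnb1*, β-catenin, which links cadherins to actin and carries the Wnt signal, was among the 5 most abundant members. It was at 17.6, 73.7, and 96.0 FPKM in vehicle and at 82.2, 59.2, and 88.0 FPKM in NJT-2. Vehicle replicate 1 was the low value and the other five libraries overlapped, so that the fitted change of 0.25 (SE 0.47) was -0.16 without it. *Fyn*, a Src family kinase at adhesions, was between 4.25 and 18.9 FPKM, with its lowest value in vehicle replicate 1 and its highest in NJT-2 replicate 2.

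The small GTPases of actin control, the G proteins that feed them, and their exchange factors had 12 members, of which 10 were tested, with 6 fitted above and 4 below 0 and a median of 0.15. *Gna13*, a G protein α subunit that activates RhoA through its exchange factors, was at 2.54, 6.67, and 9.18 FPKM in vehicle and at 9.22, 67.5, and 9.91 FPKM in NJT-2. The groups did not overlap, but NJT-2 replicates 1 and 3 lay just above vehicle replicate 3 while NJT-2 replicate 2 was 7.06 times their mean. The log2 fold change of 2.23 (SE 0.86, unadjusted p = 0.0329, adjusted p = 0.253) was 0.53 without NJT-2 replicate 2. *Gna12*, the close relative of *Gna13*, was at 11.5, 23.4, and 25.1 FPKM in vehicle and at 34.8, 25.4, and 32.6 FPKM in NJT-2. It also did not overlap, with a smaller change of 0.51 (SE 0.29, adjusted p = 0.351).

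None of the GTPases was called by edgeR with all 6 libraries. *Cdc42*, which drives filopodia and polarity, was at 50.0, 108.5, and 104.0 FPKM in vehicle and at 109.6, 98.2, and 117.6 FPKM in NJT-2. *Rac1*, which drives lamellipodia, was at 33.3, 70.0, and 65.3 FPKM in vehicle and at 50.1, 64.8, and 51.2 FPKM in NJT-2. *Rhoa*, which drives stress fibres, was at 20.8, 42.8, and 36.9 FPKM in vehicle and at 37.0, 44.5, and 36.3 FPKM in NJT-2. For each of these GTPases vehicle replicate 1 was the lowest library. The remaining libraries overlapped between the groups for *Cdc42* and *Rhoa*. For *Rac1*, all NJT-2 values lay below those of vehicle replicates 2 and 3. The log2 fold changes were 0.20 (95% interval -0.50 to 0.89) for *Cdc42*, -0.13 (-0.86 to 0.61) for *Rac1*, and 0.11 (-0.61 to 0.83) for *Rhoa*. Each interval spans 0, and the voom fit with quality weights described below gave -0.45 (adjusted p = 0.0130) for *Rac1*. Exons of the opposite-strand gene *Daglb* cover 51.4% of the exonic bases of *Rac1*.

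*Rac3*, another Rac whose coding sequence is close to that of *Rac1*, had the lowest fitted change of the set. It was at 10.3, 6.08, and 4.23 FPKM in vehicle and at 1.91, 5.32, and 1.91 FPKM in NJT-2. NJT-2 replicates 1 and 3 were below all vehicle libraries and replicate 2 was inside their range. The log2 fold change was -1.46 (SE 0.72, adjusted p = 0.307), and the fit gave -2.21 when NJT-2 replicate 2 was left out and -0.70 when vehicle replicate 1 was. Among the exchange factors and their activators, *Vav2* was fitted at -0.58 (SE 0.36), *Tiam1* at -0.72 (SE 0.44), and *Fgd1* at 0.23 (SE 0.67). *Apc*, a tumour suppressor that binds microtubules and activates Rac and Cdc42 exchange, was at 0.36, 1.82, and 4.37 FPKM in vehicle and at 3.83, 5.42, and 4.13 FPKM in NJT-2. Its groups overlapped through vehicle replicate 3, with a log2 fold change of 1.04 (SE 0.65, adjusted p = 0.387).

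The effectors downstream of these small GTPases had 8 members, all tested, with 4 fitted above and 4 below 0 and a median of -0.01. *Rock1* and *Rock2* encode the kinases that RhoA activates, which raise the phosphorylation of myosin. *Rock1* was at 0.41, 1.52, and 3.24 FPKM in vehicle and at 2.65, 4.95, and 2.99 FPKM in NJT-2. *Rock2*, at a higher level, was at 6.88, 17.2, and 32.2 FPKM in vehicle and at 17.7, 14.1, and 22.2 FPKM in NJT-2. Both overlapped between the groups, as vehicle replicate 3 lay inside the NJT-2 range of *Rock1* and the vehicle range of *Rock2* enclosed all its NJT-2 values. The fitted changes were 1.04 (SE 0.59, adjusted p = 0.354) for *Rock1* and -0.12 (SE 0.44) for *Rock2*. That of *Rock1* was 0.61 without vehicle replicate 1 and 1.74 without vehicle replicate 3, and that of *Rock2* changed sign under other settings. *Diaph1*, a formin that elongates filaments under RhoA, was between 4.16 and 5.26 FPKM in 5 libraries and at 9.44 FPKM in NJT-2 replicate 2. Its fitted change of 0.10 (SE 0.44) was -0.46 without that library. *Diaph3*, a related formin, was at 1.08, 4.30, and 7.02 FPKM in vehicle and at 1.71, 2.70, and 3.48 FPKM in NJT-2, with a fitted change of -0.68 (SE 0.54).

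The other four effectors were *Pak2*, *Limk2*, *Baiap2*, and *Iqgap2*. *Limk2*, which phosphorylates cofilin, was between 6.35 and 9.26 FPKM. *Baiap2*, a membrane-bending partner of Cdc42 and Rac, was between 13.4 and 19.0 FPKM. *Pak2*, a kinase activated by Rac and Cdc42, was at 3.72, 8.61, and 11.1 FPKM in vehicle and at 10.96, 13.4, and 11.2 FPKM in NJT-2. It overlapped in FPKM through vehicle replicate 3 alone, with a fitted change of 0.52 (SE 0.34). *Iqgap2*, a scaffold that binds Cdc42 and actin, ranged from 0.05 FPKM in vehicle replicate 1 to 1.55 FPKM in vehicle replicate 3.

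Actin nucleation and branching had 6 members, of which 5 were tested. *Pfn1*, profilin, which feeds actin monomers to growing filaments, was at 104.2, 149.1, and 88.6 FPKM in vehicle and at 83.7, 72.3, and 80.7 FPKM in NJT-2. All NJT-2 libraries were below all vehicle libraries, by a narrow gap between vehicle replicate 3 and NJT-2 replicate 1. The log2 fold change was -0.73 (SE 0.34, unadjusted p = 0.0688, adjusted p = 0.299). *Arpc2* and *Arpc5* encode subunits of the Arp2/3 complex, which branches filaments. *Arpc2* was at 31.1, 94.3, and 82.4 FPKM in vehicle and at 76.2, 127.7, and 81.5 FPKM in NJT-2, with a fitted change of 0.39 (SE 0.40) that was below 0 in the alternatives that removed or down-weighted vehicle replicate 1 and NJT-2 replicate 2. *Arpc5* was steadier, between 37.1 and 49.9 FPKM, with a fitted change of -0.25 (SE 0.30). *Cyfip2* and *Wasf1*, of the WAVE complex that activates Arp2/3 under Rac, were low and were fitted at 0.83 (SE 1.14) and 0.53 (SE 0.66). *Cyfip2* was at 0.05, 0.55, and 2.96 FPKM in vehicle, which is a 59.2-fold span, and at 1.08, 4.01, and 0.90 FPKM in NJT-2.

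Myosin and contraction had 8 members, of which 6 were tested, with 3 fitted above and 3 below 0 and a median of 0.24. *Ppp1r12a* and *Ppp1r12c* are alternative targeting subunits of myosin phosphatase, which switches contraction off, and their values differed in opposite directions. *Ppp1r12a* was at 2.55, 5.72, and 8.74 FPKM in vehicle and at 9.35, 11.04, and 9.96 FPKM in NJT-2. *Ppp1r12c* was at 26.4, 20.5, and 16.99 FPKM in vehicle and at 15.1, 12.4, and 15.1 FPKM in NJT-2. Neither gene overlapped between the groups, with the NJT-2 libraries all higher for *Ppp1r12a* and all lower for *Ppp1r12c*. The log2 fold changes were 0.77 (SE 0.36, adjusted p = 0.299) and -0.86 (SE 0.40, adjusted p = 0.297), and without vehicle replicate 1 they were 0.50 and -0.41. In vehicle the mean level of *Ppp1r12c* was 21.3 ± 4.73 FPKM against 5.67 ± 3.10 FPKM for *Ppp1r12a*, and in NJT-2 the means were 14.2 ± 1.52 and 10.1 ± 0.856 FPKM (SD, n = 3).

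*Mylk*, myosin light chain kinase, which switches contraction on and is also a smooth muscle marker, was at 1.99, 3.99, and 4.08 FPKM in vehicle and at 8.97, 0.42, and 8.20 FPKM in NJT-2. NJT-2 replicates 1 and 3 were above all vehicle libraries and replicate 2 was below them, at 20.4-fold less than the mean of the others. Its log2 fold change of 0.65 (SE 0.86) was 1.20 without NJT-2 replicate 2, but it fell to 0.20 when NJT-2 replicate 1 was left out, to 0.34 when NJT-2 replicate 3 was, and to 0.037 with the replicate number as a block. *Myh9*, the main non-muscle myosin heavy chain, was at 10.6, 33.3, and 57.0 FPKM in vehicle and at 41.0, 55.5, and 48.9 FPKM in NJT-2. Vehicle replicate 3 was its highest library and vehicle replicate 1 its lowest. Its fitted change of 0.49 (SE 0.47) was 0.12 without vehicle replicate 1 and 0.97 without vehicle replicate 3, and it was near 0 with vehicle replicate 1 and NJT-2 replicate 2 both left out, at -0.01. *Myh10*, the second non-muscle heavy chain, was between 1.37 and 8.71 FPKM, both ends being vehicle libraries. *Myl12a*, a regulatory light chain, was at 60.1, 88.4, and 66.1 FPKM in vehicle and at 66.3, 64.9, and 65.6 FPKM in NJT-2. It shares 13.8% of its exonic bases with *Myl12b* on the same strand and the coding sequences of the 2 genes are close, so that the authors' counting could have split their reads.

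The 17 members below the filter had mean values from 0 to 0.287 FPKM, with *Pdgfb* just outside it and *Kng1* (0.667 FPKM) just inside. *Parvg*, a parvin of blood cells, had the smallest p-value among them. It had 0, 4, and 0 reads in vehicle and 23, 176, and 43 reads in NJT-2, which gave a fitted change of 5.90 (SE 1.69, adjusted p = 0.186) when no filter was used, a value that depends on the prior count of the fit. The summed FPKM of the macrophage markers, given below, was also higher in NJT-2, although edgeR called only 1 of the 5 tested. The part of macrophages in the difference of *Parvg* was not tested. *Flt4*, the VEGF receptor of lymphatic endothelium, had 117, 223, and 304 reads in vehicle and 21, 258, and 37 reads in NJT-2. *Scin*, which severs filaments and was the only member of its role, had 15 and 24 reads in vehicle replicates 2 and 3 and 48 reads in NJT-2 replicate 2, and none in the others. The remaining members, *Pfn4*, *Fgf9*, *Fgf17*, *Fgf22*, *Pip5k1b*, *Myl2*, *Fgfr4*, *Itgae*, *Itgb2l*, *Apc2*, *Spata13*, *Insrr*, and the *Myl7* and *Pdgfb* genes already named, had adjusted p-values between 0.481 and 0.963 in edgeR when no filter was used. Of these only *Itgae*, an integrin α subunit, had no overlap in FPKM, with 0, 12, and 19 reads in vehicle and 22, 61, and 31 reads in NJT-2. *Insrr*, an orphan receptor of the insulin receptor family, stood in no role list.

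Of a core list of 39 genes for the best known parts of the machine, only 12 were members. These were *Vcl*, *Actn1*, *Pfn1*, *Arpc2*, *Rhoa*, *Rac1*, *Cdc42*, *Rock1*, *Rock2*, *Diaph1*, *Myh9*, and *Mylk*. Of the 12, 8 were fitted above and 4 below 0, with a median of 0.15 and none called by edgeR with all 6 libraries. Their summed FPKM was 276.9, 563.9, and 555.5 in vehicle and 477.6, 545.6, and 510.8 in NJT-2. Vehicle replicate 1 stood apart in this sum, and the other five lay close together, with the NJT-2 sums below those of vehicle replicates 2 and 3.

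Other genes of the same machinery, which the rule did not take, were read from lists. Of 52 listed genes of tropomyosin, calponin, and the targets of SRF and its cofactor MRTF, 20 were in the table and 19 were tested. *Fhl1*, a LIM protein of muscle, was the 1 gene called by edgeR, against 0.567% higher and 0.135% lower of all tested genes. *Fhl1* was at 2.65, 4.96, and 5.18 FPKM in vehicle and 60.3, 21.7, and 46.2 FPKM in NJT-2, with a log2 fold change of 3.18 (SE 0.42, adjusted p = 0.0270). At an unadjusted p under 0.05 the list had 2 genes higher, where all genes gave 8.04%, and 4 lower, where all genes gave 9.72%. DESeq2 called 2 of the list higher, *Fhl1* and *Lcp1*, and 2 lower, *Cnn1* and *Cnn2*, against 4.4% and 3.4% of all tested genes. *Cnn1*, calponin 1, which binds stress fibres, was at 10.02, 11.5, and 8.88 FPKM in vehicle and at 1.12, 3.34, and 2.38 FPKM in NJT-2, with a log2 fold change of -2.34 (SE 0.51, adjusted p = 0.101 in edgeR and 0.00113 in DESeq2). *Cnn2*, its relative in other cells, was fitted at -1.46 (SE 0.33, adjusted p = 0.114 in edgeR and 0.00227 in DESeq2). *Srf* itself was at 13.9, 14.1, and 14.9 FPKM in vehicle and at 17.04, 15.0, and 17.4 FPKM in NJT-2, with a fitted change of -0.01 (SE 0.31). The median of the list was -0.14.

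Of 20 integrin subunits listed, 9 were in the table and 6 were tested, with none called by edgeR. *Itgb5*, a subunit of the vitronectin receptor, was at 108.6, 121.5, and 95.9 FPKM in vehicle and at 33.1, 28.2, and 42.1 FPKM in NJT-2. *Itga5*, of the fibronectin receptor, was at 144.8, 129.1, and 140.3 FPKM in vehicle and at 41.0, 109.7, and 56.8 FPKM in NJT-2. *Itga7*, of a laminin receptor, was at 2.04, 1.59, and 1.57 FPKM in vehicle and at 9.87, 5.05, and 9.96 FPKM in NJT-2. The other tested integrins, *Itga2*, *Itga3*, and *Itgb3*, overlapped between the groups. *Itgb5*, *Itga5*, and *Itga7* did not, with 2 lower and 1 higher in NJT-2, against 11.5% and 14.4% of all tested genes. These shares are those without overlap in FPKM. The log2 fold changes were -1.88 (SE 0.36, adjusted p = 0.0770) for *Itgb5*, -1.20 (SE 0.49, adjusted p = 0.270) for *Itga5*, and 1.99 (SE 0.44, adjusted p = 0.103) for *Itga7*. DESeq2 called 1 integrin higher, *Itga7*, against 4.4% of all tested genes, and 1 lower, *Itgb5*, against 3.4%.

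Much of the spread of the members lay between libraries of the same group. The Euclidean distance on log2(FPKM + 1) over the 50 tested members averaged 6.85 between libraries of the same group and 7.49 between groups, and it was 1.41 between NJT-2 replicates 1 and 3. Vehicle replicate 1 had the lowest FPKM of all 6 libraries for 30 members (60%), against 51% of all tested genes. It was the lowest vehicle library for 40 members (80%), against 66.2%, and it was below 0.5 times both other vehicle libraries for 27 members (54%), against 34.9%. NJT-2 replicate 2 was the highest of all 6 for 19 members (38%), against 24.4%. It was over 2 times both other NJT-2 libraries for 12 members (24%), against 12.2%, and below 0.5 times both for 5 members (10%), against 17.2%. NJT-2 replicates 1 and 3 lay within 1.5 times of each other for 46 members (92%), against 94.8%.

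The libraries differed in how their values varied with gene length. Against the mean of the other five libraries, the Spearman correlation of the difference with length across all tested genes was -0.388, -0.401, and 0.347 for vehicle replicates 1 to 3 and 0.184, 0.284, and 0.251 for NJT-2 replicates 1 to 3. Across the members it was -0.391, -0.292, and 0.393 in the vehicle libraries, whereas the NJT-2 libraries gave 0.290, 0.0081, and 0.420. Vehicle replicates 1 and 2 were thus negative and vehicle replicate 3 positive. Within the vehicle group, across the 50 tested members, the difference of vehicle replicate 1 from the mean of the other vehicle libraries had a Spearman correlation of -0.409 with the gene length behind the FPKM values, and -0.372 across all tested genes. These points share their libraries and are given as a description. For the 25 longer members, with a median length of 9197 bases, the median difference was -0.96, and their median fitted change was 0.52 with 16 above 0. For the 25 shorter members, with a median length of 3792 bases, the median difference was -0.13, and their median fitted change was 0.08 with 13 above 0. For NJT-2 replicate 2 against the other NJT-2 libraries the correlation was -0.15 across members and 0.151 across all tested genes. With a trend on length taken out of each library, *Enah* was fitted at -1.56 (adjusted p = 0.0997), *Rac3* at -0.44, *Pfn1* at -0.36, *Rock2* at -0.56, *Rock1* at 0.54, *Myh9* at 0.08, *Mylk* at 0.21, *Igf1* at 0.10, *Egfr* at 0.55, *Arpc2* at 0.77, and *Cdc42* at 0.40. In this fit *Met* was at 2.31 (adjusted p = 0.114), *Vcl* at 1.78, and *Gna13* at 2.06, and no member was called.

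**Figure D4:**
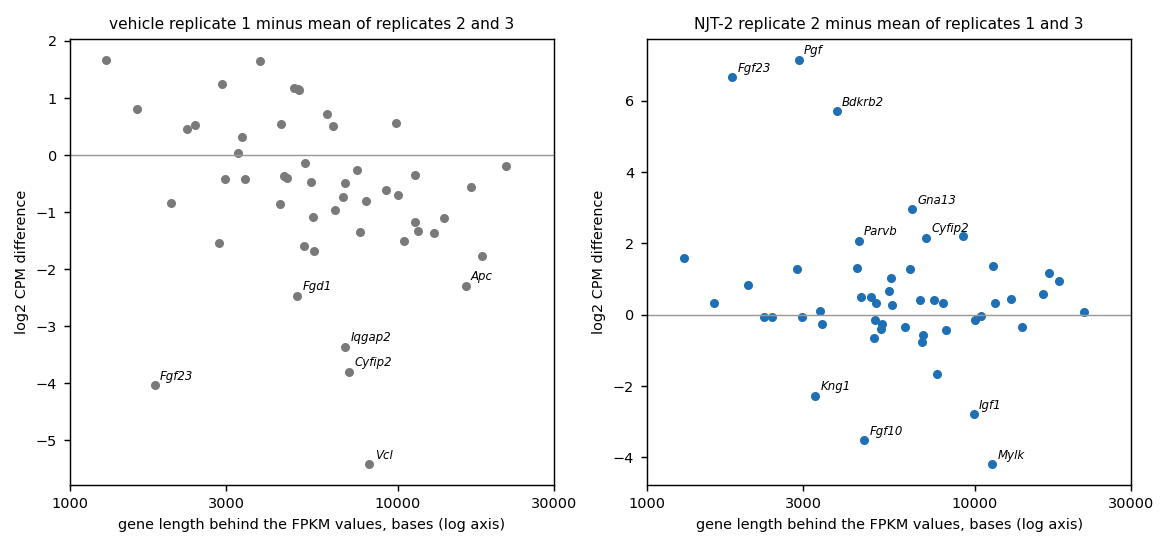
Difference in log2 CPM (y axis) against gene length in bases (x axis, log scale) for the 50 tested members, for vehicle replicate 1 minus the mean of vehicle replicates 2 and 3 (left, grey) and for NJT-2 replicate 2 minus the mean of NJT-2 replicates 1 and 3 (right, blue). Most members that differ by more than 2 are named, and the left panel slopes down (Spearman correlation -0.409) while the right does not show such a slope (-0.15).

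The counts were repeated without the libraries that stood apart, as alternatives added after the data had been seen. With vehicle replicate 1 and NJT-2 replicate 2 both left out, 3 members were called higher, against 6.88% of all tested genes, and 5 lower, against 6.13%. *Met* (2.54, adjusted p = 0.00521), *Igf1* (1.26, adjusted p = 0.0109), and *Mylk* (1.09, adjusted p = 0.0124) were the higher ones. *Bdkrb2* (-2.60, adjusted p = 0.0177), *Actn1* (-1.43, adjusted p = 0.0252), *Igf1r* (-1.02, adjusted p = 0.0452), and *Rac3* (-1.43, adjusted p = 0.0462) were among the lower ones. The 8 calls were 16% of the members, against 13% of all tested genes. This comparison has 2 libraries per group, and its NJT-2 libraries are the closest of all library pairs. With all libraries kept and weighted by their fit to the group (limma voom with quality weights), 7 members were called higher, against 10.6% of all tested genes, and 5 lower, against 9.04%, in all 24% of the members against 19.6% of all tested genes. *Met*, *Igf1*, and *Mylk* were among the higher calls and *Bdkrb2*, *Actn1*, and *Rac3* among the lower ones, and *Vcl* was called at 2.69 (adjusted p = 0.000154). The weights were 0.141, 4.09, and 0.438 for vehicle replicates 1 to 3 and 4.37, 0.130, and 6.93 for NJT-2 replicates 1 to 3, so that the vehicle side of this fit rests mainly on vehicle replicate 2 alone. Both alternatives set aside the same libraries, so that neither is independent support for the calls of the other.

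Markers of other cell types were read in the same libraries, and of these the macrophage and the smooth muscle sums did not overlap between the groups. All 5 tested macrophage markers of a list of 15 were fitted higher in NJT-2, and edgeR called 1, *Adgre1*, against 0.567% of all tested genes. DESeq2 called 2 higher, *Adgre1* and *Cd68*, against 4.4% of all tested genes. The summed FPKM of the 5 was 10.8 to 13.6 in vehicle and 32.7 to 61.8 in NJT-2. Of the 6 progenitor and fibroblast markers in the table, 5 were fitted lower, and edgeR called 1, *Pi16*, against 0.135% of all tested genes. DESeq2 called 3 lower, *Pi16*, *Pdgfrb*, and *Dcn*, against 3.4% of all tested genes. The summed FPKM of the 6 was 227.9 to 999.9 in vehicle and 444.6 to 489.5 in NJT-2. Of the 3 smooth muscle and myofibroblast markers in the table, 2 were fitted lower, and edgeR with all 6 libraries called none. DESeq2 called 1 lower, *Cnn1*, against 3.4% of all tested genes. The summed FPKM of the 3 was 13.3 to 17.8 in vehicle and 4.46 to 12.1 in NJT-2. All 4 proliferation markers in the table were fitted lower, and edgeR called none. DESeq2 called 2 of them lower, *Cdk1* and *Mcm5*, against 3.4% of all tested genes. The summed FPKM of the 4 was 21.9 to 48.4 in vehicle and 20.1 to 28.4 in NJT-2. The 4 endothelial markers in the table summed to between 1.15 and 2.92 FPKM in all libraries, and *Vwf* was at no more than 0.07 FPKM. The part of these cell types in the changes of the members was not tested.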

How the data were processed

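RNA-seq of ADSC-derived adipocytes (3 vehicle, 3 NJT-2 libraries) was analysed from 1 deposited table, of which 4864 complete genes were used. These are the first in Ensembl order and hold between 27.7% and 32.5% of each library, as worked out from the counts and FPKM, and 1 incomplete line was left out. The authors deposited raw read counts per gene and, beside them, FPKM values computed from those counts. Per the submitters' processing notes, cutadapt 1.9, HISAT2 2.2.1, StringTie 2.1.6, DESeq2, and edgeR were used with the build GRCm38. The library kit marks strand, and the use of strand in counting is not given in the sources used here.

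The test on the counts was the quasi-likelihood test of edgeR 4.0.16 with TMM factors in R 4.3.3, run where the mean FPKM of a gene reached 0.5, with Benjamini-Hochberg adjustment over all 3705. Alternatives were DESeq2 1.42.0 (the study's tool), limma 3.58.1 on log2 FPKM and voom, other scalings and filters, a trend on length, a replicate block, and leaving out libraries. The members and lists were chosen with earlier results of these data known. Named members are any called, those with an unadjusted p under 0.05 and no overlap at a mean FPKM of at least 1, the 5 highest in mean FPKM, and the core list. Others named, such as *Enah*, *Egfr*, *Rac3*, *Pgf*, *Fgf23*, *Igf1*, *Fgf10*, *Bdkrb2*, *Ppp1r12a*, *Ppp1r12c*, and *Pip4k2c*, were chosen after their values were seen, as were the values given to describe a role. On counts simulated for NJT-2 against vehicle over 3705 genes, 0 of 200 genes were recovered at a set log2 fold change of 1, 95 of 200 at 2 (2 false calls), and 177 of 200 at 3 (13 false calls). No libraries were alike within sampling noise (for the closest, NJT-2 replicates 1 and 3, the chi-square per gene was 46.7). Genes were matched by Ensembl identifier to GENCODE M21, and promoters by symbol to RefSeq. Values of some members are not reported here.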

Additional observations from a re-analysis of the deposited data

How the results depend on the processing

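No member was called in edgeR with DESeq2 size factors, upper-quartile factors, implied library totals, no filter, a filter at a mean FPKM of 1, or the length trend taken out, nor in limma on log2(FPKM + 1) or log2(FPKM + 0.1). These settings called 17 to 32 of all tested genes higher and 5 to 10 lower, so that 0 calls among the members is near the background. DESeq2 called 1 member higher. Leaving out each library in turn gave 0 calls in each direction, which shows no stability, since without NJT-2 replicate 2 there were 56 higher and 19 lower of all 3705 genes and in the other five fits no more than 2 in either direction. The median member change in these fits ran from -0.05 to 0.47. With vehicle replicate 1 and NJT-2 replicate 2 both left out (added after seeing the data), 3 were called higher and 5 lower, and with voom quality weights (added after seeing the data), 7 higher and 5 lower. In both of these the cause was not tested.

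Some members changed sign. On limma with log2(FPKM + 1), *Rac1* was 0.040, *Rock2* 0.15, *Fgf10* -0.13, and *Bdkrb2* -0.056. With log2(FPKM + 0.1) they were 0.042, 0.18, -0.31, and -0.79. With the length trend taken out, *Rhoa* was -0.17 and *Diaph1* -0.12. With vehicle replicate 1 and NJT-2 replicate 2 both left out, *Arpc2* was -0.17, *Rhoa* -0.13, *Myh9* -0.0072, *Diaph1* -0.28, *Pgf* -1.53, *Fgf23* -1.44, and *Bdkrb2* -2.60. With voom quality weights, *Arpc2* was -0.21, *Rhoa* -0.21, *Rock2* 0.16, *Diaph1* -0.27, *Pgf* -2.07, *Fgf23* -0.66, and *Bdkrb2* -2.33. Leaving out each library in turn gave -0.16 to 0.58 for *Ctnnb1*, -0.039 to 0.23 for *Rhoa*, -0.47 to 0.35 for *Rock2*, -0.46 to 0.33 for *Diaph1*, -2.05 to 4.03 for *Pgf*, -0.90 to 5.62 for *Fgf23*, -0.39 to 0.61 for *Fgf10*, and -3.37 to 1.58 for *Bdkrb2*. Leaving out NJT-2 replicate 2 alone reversed *Pgf*, *Fgf23*, *Bdkrb2*, *Diaph1*, and *Rhoa*, leaving out vehicle replicate 1 alone reversed *Ctnnb1*, *Rhoa*, and *Fgf10*, and leaving out vehicle replicate 3 alone reversed *Rock2*. *Fgf10* was also reversed without vehicle replicate 2 and without NJT-2 replicate 1 or 3. The cause was not tested further. The FPKM scales moved the median of all genes to 0.141 and 0.173 and the implied totals to 0.159, from 0.020.

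Whether the replicate numbers pair the libraries is not given by the labels. The correlations of same-numbered deviations from the group means were 0.18, 0.03, and -0.21. They do not settle the pairing, as 1 library of each group stood apart and moved these deviations. With the replicate block, 0 members were called higher and 0 lower, against 43 and 14 of all 3705 genes, and *Diaph1* was -0.023, *Pgf* -0.47, *Fgf10* -0.45, and *Bdkrb2* -1.85. The members below the filter had between 2 and 1176 reads in all 6 libraries together, and depth limits what their values can show.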
